A study of Homo sapiens with 12 samples.

Results

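The genes described here are 10 inhibitors of RAS and ERK signalling, chosen by name: DUSP4, DUSP5, DUSP6, DUSP7, SPRY2, SPRY4, SPRED1, SPRED2, NF1 and RASA1. The files hold 8843 gene names with a listed m6A peak or a compared region. Of the 10 inhibitor genes, 8 carried a peak in at least 1 library, DUSP7 appeared only among the compared regions, and SPRY2 appeared nowhere.

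N6-methyladenosine (m6A), a methyl mark on adenosines of RNA, was mapped by MeRIP-seq: fragmented RNA was immunoprecipitated for the mark, and the captured pieces were sequenced alongside the unselected input. The lines compared were BT474, an established ERBB2-amplified breast cancer line labelled sensitive, and BT474.TtzmR, a derivative labelled resistant to trastuzumab (Herceptin), a therapeutic antibody that binds ERBB2. Both were grown in the same serum-supplemented medium. Each line had 3 pull-down libraries, whose peak lists are used here, and 3 input libraries, whose reads were not analysed here. The labels say neither how resistance was selected, nor whether the derivative is 1 clone, nor whether trastuzumab was present at harvest.

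ERBB2 and other receptor tyrosine kinases switch on RAS, which drives the RAF, MEK and ERK kinases. The signal is held in check at several levels: dual-specificity phosphatases (DUSPs) dephosphorylate ERK, Sprouty (SPRY) and SPRED proteins act between receptor and RAF, and the GTPase-activating proteins NF1 and RASA1 turn RAS off. Several of the DUSP, SPRY and SPRED genes are switched on by ERK itself, which makes them feedback inhibitors, while NF1 and RASA1 are better known as standing brakes on RAS. m6A lies mostly near the stop codon, in 3′ UTRs and in long exons, and reader proteins that bind it affect how long a messenger RNA lasts and how it is translated.

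The resistant lists held 30767 to 32638 peaks and the sensitive lists 26028 to 29063, and all peaks together covered 1.19 times as many exonic bases in resistant as in sensitive libraries. Read depth per library is unknown. Of 10 luminal or ERBB2-segment marker genes, all had a peak in at least 1 library and 7 in all 6; GRB7 had one in 3 resistant and no sensitive library and ESR1 in 1 resistant library. Of 4 mesenchymal or blood markers, FN1 and PTPRC had no peak, VIM had one in 1 library of each line, and COL1A1 in all 6. A peak is not a measure of RNA level, so these lists check the labels only in part.

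Of the inhibitor genes, 5 had more of their sequence under m6A peaks in every resistant library than in any sensitive one: DUSP6, SPRY4, SPRED1, SPRED2 and RASA1. None had less in every resistant library. That is 5 of the 8 members with a peak, beside 17.9% of all 8353 genes with a peak that stood higher in this way and 4.47% that stood lower. For each of these 5 genes the exact permutation test, two-sided, gave p = 0.1, the smallest value that 3 libraries against 3 can give, and an adjusted p of 0.447 over all 8353 genes, so none passed. With only peaks of a fold enrichment of at least 5, SPRED2 and RASA1 alone stood higher, 2 in place of 5: SPRY4 (exact permutation p = 0.4) and SPRED1 (exact permutation p = 1) overlapped, and DUSP6 had no such peak. With only peaks of p below 1e-05, RASA1 overlapped (exact permutation p = 0.4) and the other 4 stood higher. No share of all genes is given here for either peak limit, so these counts cannot be set against one. After scaling to 1000000 covered bases in each library, a setting chosen after seeing the data, DUSP6, SPRY4, SPRED1 and RASA1 still stood apart and SPRED2 did not. On that scale 9.95% of all genes stood higher and 13.5% lower. A longer peak can come from more methylation or from more RNA of the gene, which cannot be told apart in these lists.

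**Figure D1:**
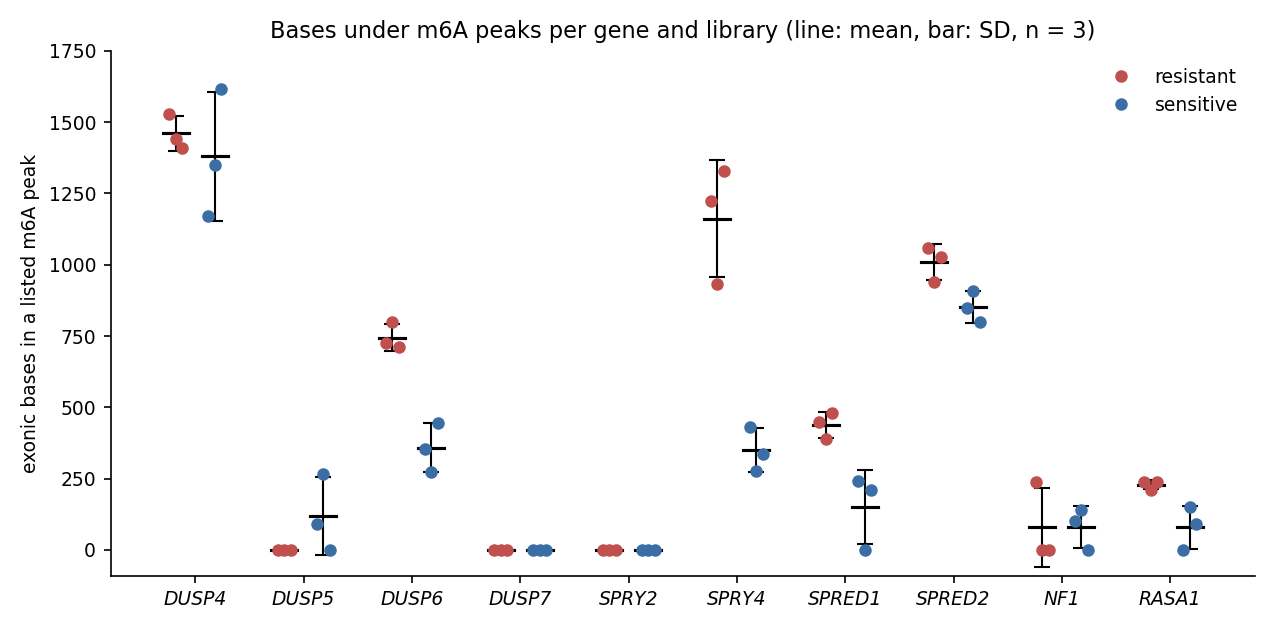
Exonic bases lying in at least 1 listed m6A peak (vertical axis) for each of the 10 genes in the 3 resistant and 3 sensitive libraries, as points, with the mean as a line and the SD as a bar (n = 3). The points of the lines do not overlap for DUSP6, SPRY4, SPRED1, SPRED2 and RASA1, although SPRED2 overlaps after scaling to library totals, and DUSP7 and SPRY2 lie at 0 throughout.

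SPRY4 encodes a Sprouty protein that damps signalling between receptor tyrosine kinases and ERK. Its peaks covered 1225, 931 and 1329 bases in resistant libraries 1, 2 and 3, and 431, 278 and 338 bases in sensitive libraries 1, 2 and 3. Every resistant value was thus far above the highest sensitive one. The means were 1161.7 ± 206.4 bases and 349 ± 77.1 bases (SD, n = 3 each), a ratio of 3.33. Among the 4670 genes with a peak in all 6 libraries the median ratio was 1.11, and 98.9% of them had a smaller ratio than SPRY4. As a share of its longest listed transcript, 23.5% of SPRY4 lay under peaks in resistant and 7.07% in sensitive libraries on average.

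The SPRY4 peaks formed 3 merged regions, each made by joining peaks that share at least 1 exonic base. The most 5′ region, in the coding sequence (chromosome 5, 141694211 to 141694600), was listed in all 6 libraries. A second coding region (141693852 to 141694121) covered 245, 180 and 270 bases in resistant libraries 1, 2 and 3 and was listed in no sensitive library. The most 3′ region, in the 3′ UTR (141692924 to 141693702), covered 660, 451 and 691 bases in the resistant libraries, 153 and 179 bases in sensitive libraries 1 and 3, and none in sensitive library 2. The lines stood closest in the first region, where the resistant libraries had 300 to 368 bases and the sensitive ones 159 to 278. In all, 412 bases of SPRY4 lay under peaks in all 3 resistant and no sensitive libraries.

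DUSP6 encodes a cytoplasmic phosphatase selective for ERK. Its peaks covered 724, 799 and 711 bases in resistant libraries 1, 2 and 3 and 353, 275 and 446 bases in sensitive libraries 1, 2 and 3. Every resistant library lay above every sensitive one, with means of 744.7 ± 47.5 and 358 ± 85.6 bases (SD, n = 3 each) and a ratio of 2.08. The main merged region ran from the coding sequence into the 3′ UTR (chromosome 12, 89742354 to 89744382), and all 6 libraries listed a peak in it. Its coding and 3′ UTR parts were joined only by the peak of sensitive library 3, which was in the 3′ UTR alone. The other libraries listed the coding part as a separate peak, at folds of only 1.45 to 1.56. A short 3′ UTR region farther downstream (89741817 to 89741937) was listed in resistant libraries 1 and 2 and in sensitive library 1. The bases in all 3 resistant and no sensitive libraries numbered 145, and those in all 6 libraries 155.

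SPRED1 and SPRED2 encode membrane-bound relatives of the Sproutys that block the step from RAS to RAF; SPRED1 binds the NF1 protein and brings it to the membrane. SPRED1 had 1 region, in the coding sequence (chromosome 15, 38643287 to 38643825), covering 449, 390 and 480 bases in resistant libraries 1, 2 and 3. The same region covered 241 and 211 bases in sensitive libraries 1 and 3 and was not listed in sensitive library 2. The resistant values were higher throughout, with means of 439.7 ± 45.7 and 150.7 ± 131.3 bases (SD, n = 3 each).

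SPRED2 was covered more evenly, with 1059, 939 and 1028 bases in resistant libraries 1, 2 and 3 and 850, 909 and 798 bases in sensitive libraries 1, 2 and 3. The difference was small beside that of SPRY4, with a ratio of 1.18, and 59.6% of genes with a peak in all 6 libraries had a smaller ratio. What differed was the shape. On transcript ENST00000443619.2 each resistant list held 1 unbroken peak reaching from the coding part into the 3′ UTR, of 1050, 930 and 1020 bases. Each sensitive list held a coding peak of 540, 540 and 480 bases and a separate 3′ UTR peak of 301, 331 and 241 bases. Between the lines, 80 bases of SPRED2 lay under peaks in all 3 resistant and no sensitive libraries, and 739 lay under peaks in all 6.

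**Figure D2:**
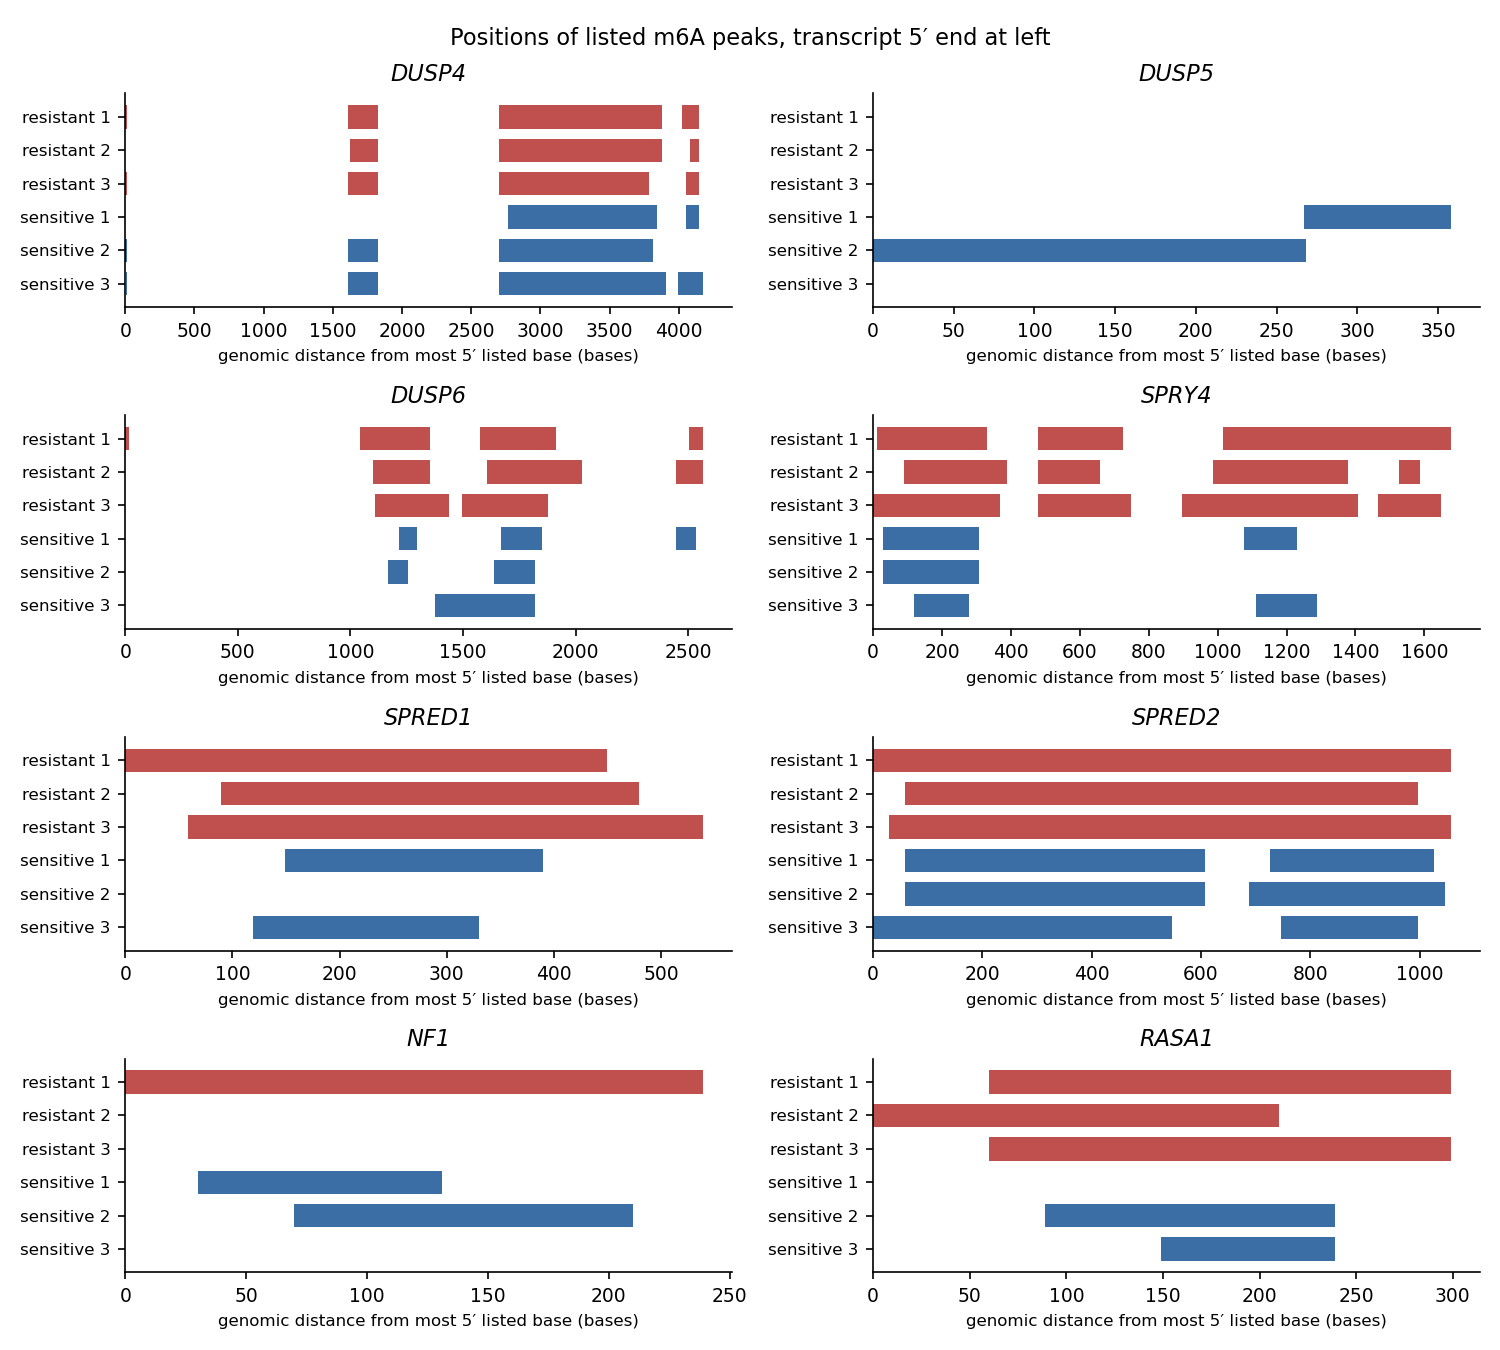
Positions of listed m6A peaks on the 8 genes that carry any, as bars for each resistant (red) and sensitive (blue) library, with genomic distance in bases from the most 5′ listed base on the horizontal axis and introns included. SPRY4 shows a middle coding region in the 3 resistant libraries alone, and SPRED2 a break in the 3 sensitive libraries that is bridged in the resistant ones. Blocks of 1 base across an intron of SPRED2 are left out.

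RASA1 and NF1 encode the GTPase-activating proteins of the set. RASA1 had 1 coding region (chromosome 5, 86564330 to 86564628), covering 239, 210 and 239 bases in resistant libraries 1, 2 and 3. In sensitive libraries 2 and 3 it covered 150 and 90 bases, and in sensitive library 1 it was not listed, so every resistant value was above every sensitive one. NF1 was the one gene of the set with a peak at the 5′ end. That region (chromosome 17, 29422114 to 29422352), in the 5′ UTR and the start of the coding sequence, covered 239 bases in resistant library 1 and 101 and 140 bases in sensitive libraries 1 and 2. It was not listed in the remaining 3 libraries. The lines overlapped for NF1 (exact permutation test, p = 1), and at most 1.92% of its long transcript lay under a peak in any library. The NF1 means differed by -0.667 bases, a sign that turned without resistant library 2 or 3 or sensitive library 1 or 2.

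DUSP4, a nuclear phosphatase of ERK and other MAP kinases, was covered heavily in both lines. Its peaks spanned 1530, 1441 and 1410 bases in resistant libraries 1, 2 and 3 and 1171, 1350 and 1617 bases in sensitive libraries 1, 2 and 3. The highest and the lowest of these 6 values were both in sensitive libraries (exact permutation test, p = 0.6). The sign of the small mean difference turned after scaling to library totals and without sensitive library 1, and without sensitive library 3 the lines did not overlap. Its main region joined 3 exons, from the coding sequence into the 3′ UTR (chromosome 8, 29193723 to 29197628), and a second lay in the 3′ UTR (29193454 to 29193633). Between 21.1% and 29.2% of the longest listed DUSP4 transcript lay under peaks, and 1021 bases did so in all 6 libraries.

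DUSP5, a nuclear phosphatase selective for ERK, was listed in sensitive cells alone. Sensitive library 1 had a peak of 91 bases and sensitive library 2 one of 268 bases, around the end of the coding sequence and in the 3′ UTR (chromosome 10, 112270143 to 112270500), while sensitive library 3 and the resistant libraries had none. Without sensitive library 3 the lines did not overlap. These peaks overlapped each other by 1 base, so the libraries did not mark the same stretch. The exact permutation test gave p = 0.4.

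Taken by region, 8 of the 12 merged regions of these genes were listed in at least 2 libraries of both lines. Of the rest, 2 were found in resistant cells alone by that rule, the middle SPRY4 region and the distal DUSP6 region, the latter with 1 sensitive library. The other 2 were found in sensitive cells alone, those of DUSP5 and NF1, the latter with 1 resistant library. Over all 17465 merged regions, 14.1% were found in resistant cells alone and 6.26% in sensitive cells alone. The counts of 2 and 2 turned on single libraries. The first was 1 without resistant library 2, and 5, 3 and 6 without sensitive libraries 1, 2 and 3. The second was 0 without sensitive library 1 or 2. With a library left out, both remaining libraries of its line had to list a region, which is a stricter rule. Every region thereby added to the first count was still listed in 1 sensitive library. Coding sequence was part of 9 of the 12 regions, 3 lay wholly in the 3′ UTR, and only that of NF1 touched the 5′ UTR.

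The strength of the peaks was ranked within each list, using the authors' fold enrichment and p of the peak with the smallest p in each region. SPRED2 had the highest fold of the set in 5 lists, at 9.53 in resistant library 1, 12.1 in resistant library 3, and 12.9, 10 and 9.15 in the sensitive libraries. RASA1 led in resistant library 2, at 9.77. Between 89.2% and 93.9% of all peaks of a list had a lower fold than its SPRED2 peak. DUSP6 had the lowest fold of the set in all 6 lists, from 1.52 to 2.91. In its main region the folds were 2.24, 1.86 and 1.52 in resistant libraries 1, 2 and 3. They were 2.34, 2.91 and 2.15 in sensitive libraries 1, 2 and 3, so the longer cover in resistant libraries came without higher folds. This difference in fold was not tested. DUSP4 had the smallest p in all 6, from 1.26e-37 to 1.26e-93, at folds of only 2.79 to 4.4. A small p and a high fold thus fell on different genes of the set.

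For SPRY4 the coding region listed in all 6 libraries had folds of 6.55, 4.91 and 6.02 in resistant libraries 1, 2 and 3, with p of 1.00e-20, 1.26e-15 and 3.16e-26. In sensitive libraries 1, 2 and 3 the folds were 8.26, 7.88 and 4.44, with p of 7.08e-09, 2.69e-05 and 1.41e-04. These values describe each list on its own and give no difference between the lines. A fold also depended on the isoform to which a peak was assigned: in sensitive library 2 the SPRED2 coding peak stood at 10 on ENST00000443619.2 and at 44.3 on ENST00000421087.1.

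**Figure D3:**
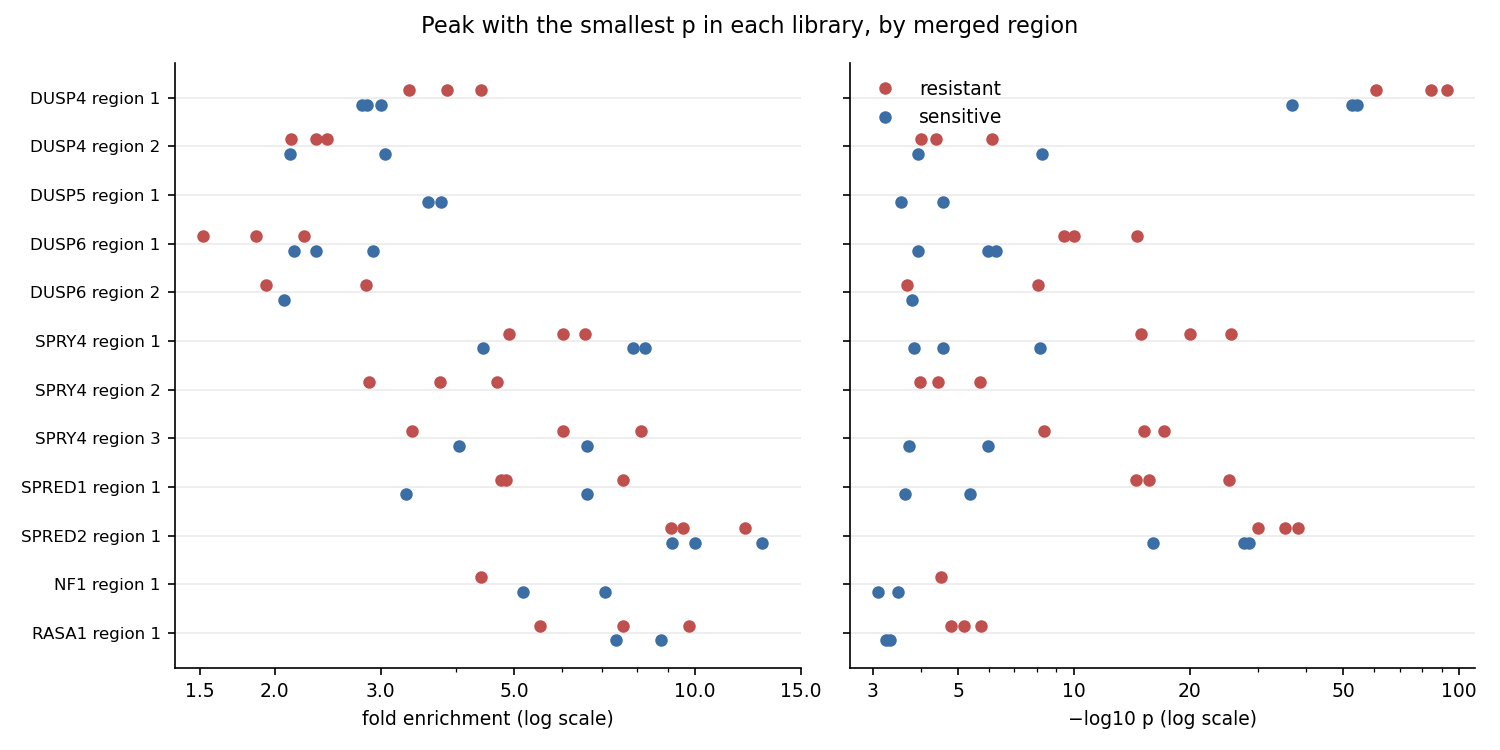
Fold enrichment (left) and −log10 p (right), both on log axes, of the peak with the smallest p in each merged region and library, with resistant libraries in red and sensitive in blue, and regions numbered from the 5′ end of each gene. Within every list DUSP4 region 1 has the smallest p of the set, and SPRED2 or RASA1 the highest fold.

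None of the inhibitor genes was called different between the lines by the authors. The authors' deposited table holds 17301 rows, a region being listed for each transcript, from 5553 genes, with a call where p is below 0.05 and the fold, resistant over sensitive, is at least 1.5 in either direction. In it were 6 members, in 12 rows and 9 merged regions, and 0 were called higher and 0 lower, beside 14.2% of all genes called higher and 2.76% called lower. At a deposited p below 0.05 with any fold, DUSP4, SPRY4 and SPRED1 stood above 1 and no member below 1. That is 3 of 6, beside 40.2% of all genes above 1 and 9.49% below 1, so the share is near that of all genes. The median of the members' median folds was 1.32, beside 1.25 over all genes. The whole table leaned upwards, with a median log2 fold of 0.32, and each fold below is to be read against that.

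Of the rows that lie over a listed peak, none reached the fold limit. The SPRED1 coding region stood at a 1.46-fold level in resistant cells (deposited p = 0.0132) in the authors' deposited table, over the peaks described above. For the SPRY4 3′ UTR region the authors' deposited table gave 1.42 on both of its transcripts (deposited p = 0.00589 and 0.0055). Divided by the median of the authors' deposited table these folds became 1.16 and between 1.13 and 1.14. The DUSP4 region had the smallest p of the set, 6.31e-13, but a fold of only 1.22 in the authors' deposited table, and 1.19 on its other transcript. Both were below the median of the authors' deposited table, at 0.974 and 0.947 of it. DUSP5 stood at 0.765 (deposited p = 0.0794) in the authors' deposited table.

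**Figure D4:**
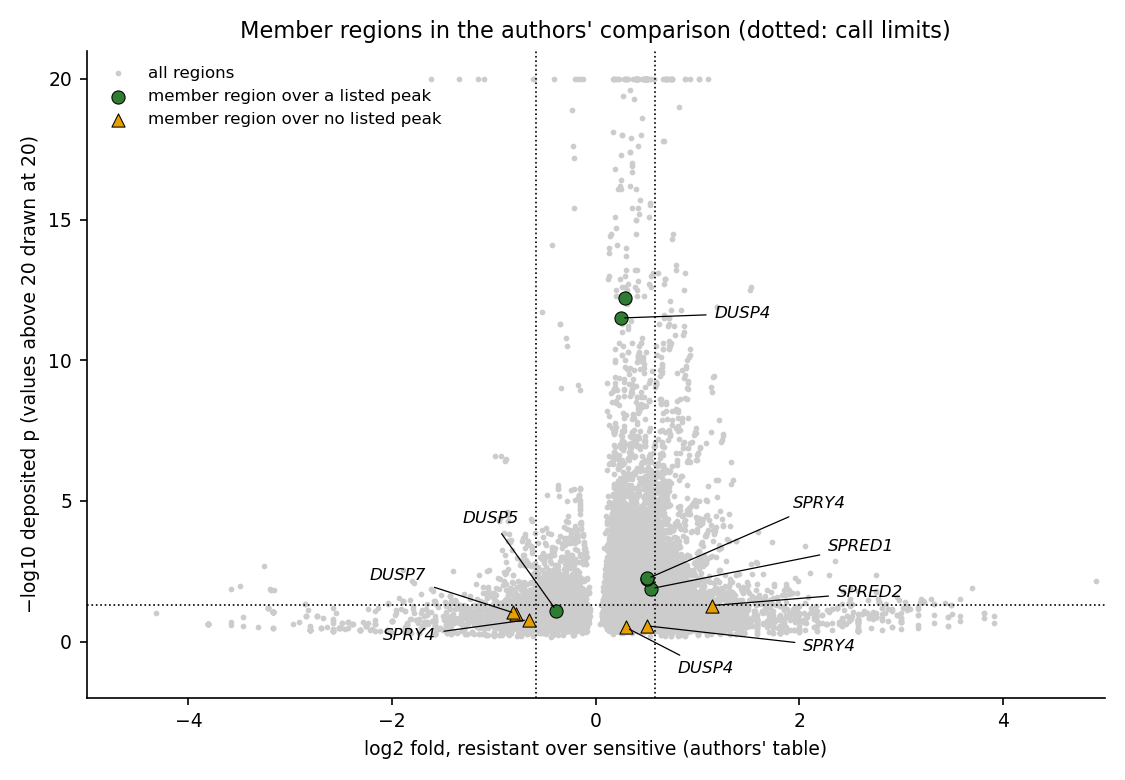
Log2 fold of resistant over sensitive (horizontal axis) against −log10 of the deposited p (vertical axis, drawn up to 20) for all regions of the authors' deposited table in grey, with the 12 rows of the inhibitor genes as circles where they overlap a listed peak and as triangles where they do not. No member row lies beyond both the p limit and a fold limit, drawn as dotted lines, and the circles of SPRED1 and SPRY4 lie just inside the upper fold limit.

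The most extreme member folds lay where no library had a listed peak. SPRED2 had a 3′ UTR row (chromosome 2, 65537985 to 65538105) at 2.2 (deposited p = 0.0525) in the authors' deposited table, away from its strong peaks. DUSP7, which encodes a further cytoplasmic ERK phosphatase, had a region around its stop codon (chromosome 3, 52084813 to 52084943). On the transcripts listed for DUSP7 the authors' deposited table gave 0.58 (deposited p = 0.101) and 0.57 (deposited p = 0.0891). Further rows without a peak were 2 in the SPRY4 3′ UTR, at 0.633 and 1.42, and 1 in the DUSP4 5′ UTR, at 1.23, with p from 0.166 to 0.315 in the authors' deposited table. In total 6 of the 12 member rows overlapped no listed peak, beside 17.7% of all rows of the authors' deposited table.

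Conversely, much of what was listed was not compared. Of the 12 merged regions of these genes, 4 overlapped a row of the authors' deposited table: DUSP4 region 1, DUSP5, SPRED1 and the SPRY4 3′ UTR. Over all genes the share was 39.7%. The strong SPRED2 region, both DUSP6 regions, both SPRY4 coding regions, RASA1 and NF1 therefore have no fold between the lines, and the differences in covered bases described for them rest on the peak lists alone.

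Other genes of the pathway were looked at in 4 lists. No gene of these lists was called in the authors' deposited table, higher or lower. Of 12 other MAP kinase phosphatase, Sprouty and SPRED genes, 6 had a peak and 1 stood higher in covered bases in every resistant library: SPRY1, another Sprouty gene. Its peaks covered 1298, 1506 and 1476 bases in resistant libraries 1, 2 and 3 and 438, 450 and 657 bases in sensitive libraries 1, 2 and 3. The lines did not overlap, before or after scaling to library totals. The phosphatase gene DUSP16, by contrast, overlapped, and stood lower in every resistant library after that scaling. Over all genes with a peak, the shares to set beside the counts of these lists are 17.9% higher and 4.47% lower before scaling, and 9.95% higher and 13.5% lower after it. The genes named from these lists were chosen after their values were seen.

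Among 16 other RAS GTPase-activating and negative regulator genes, 9 had a peak and 3 stood higher: DAB2IP, a GTPase-activating protein for RAS, ERRFI1, an inhibitor of EGFR and ERBB2, and CIC, a repressor relieved by ERK. After scaling, DAB2IP and CIC still did and ERRFI1 did not, while PEBP1 stood lower. Of 17 genes of the cascade from GRB2 to ERK, 12 had a peak and 2 stood higher, the RAS exchange factors SOS1 and SOS2, neither of them after scaling; HRAS and SHOC2 then stood lower. Of 15 ERK-responsive transcription genes, 10 had a peak and 5 stood higher: FOS, IER2, ELK1, MYC and MAFF, of which FOS, ELK1 and MAFF did after scaling. No gene of the 4 lists stood lower before scaling. The median of the genes' median folds in the authors' deposited table was 1.05, 1.36, 1.23 and 1.17 for these lists in the order given, beside 1.25 over all genes. At a deposited p below 0.05, 1 of 4, 3 of 6, 4 of 7 and 3 of 8 compared genes had a region above 1. Only DUSP1, of the first list, had one below 1, with a median fold of 0.718. Over all genes the shares were 40.2% above 1 and 9.49% below 1.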

How the data were processed

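Used here were the peak lists of the 6 pull-down libraries and a table in which the authors compared the lines. Reads were aligned with HISAT2, per the submitters' processing notes. Neither the peak caller nor the genome build is given in the sources used here, nor is the model behind the comparison. Peaks of the 8 members with any lay outside the bounds of those genes in the GRCh38.p14 gene table, so positions are those of the files, counted from 1. Per the file headers, the authors gave each peak a fold enrichment (a ratio) and a p-value. Their comparison table gives each region a fold ratio, resistant over sensitive, and a deposited p-value. The headers do not say whether that p was adjusted. The rows in the authors' called lists were exactly those past the p and fold limits, with 0 mismatches.

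A peak is listed once for each transcript isoform. Covered bases are exonic bases in at least 1 peak of a gene, so repeated rows count once. Groups and replicate numbers came from the titles; the lists named s1 to s3 were matched to the sensitive libraries titled with those numbers. An exact permutation test, two-sided, was run on every gene with a peak and adjusted by the Benjamini-Hochberg method over all of them, with numpy 2.4.6 and pandas 2.3.3 under Python 3.11.15. The labels do not tell whether replicates were separate cultures; the p-values therefore cover library-to-library spread that may be technical. The 10 genes are named whatever their values; of the 4 pathway lists, genes with a called region would have been named, and there were 0. Members and lists were chosen with earlier results of these data known. Interval and permutation code was tested on simulated data. Alternatives covered stricter peaks, equal list lengths, leaving out each library, pairing by replicate number, and other scalings and limits of the fold.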

Additional observations from a re-analysis of the deposited data

How the results depend on the processing

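Of 169 values recomputed under alternatives, 138 kept their direction and, for counts, stayed within 1.5 times. Some of the 138 were fixed in advance, such as mean differences under pairing by replicate number and call counts under stricter limits. Differences in bases among the 138 could still change size: that of SPRED1 fell from 289 to 69.3 at peak folds of at least 5. The count of 5 genes higher in every resistant library became 2 with peaks of fold enrichment of at least 5, and 1 when merged regions were counted in place of covered bases, with 1 gene then lower: SPRED2, whose difference was -1 region because its peaks were joined in resistant libraries. Leaving out 1 library gave 5 or 6 genes higher and 0 or 1 lower in every resistant library. The 6 added DUSP4 and the 1 was DUSP5, both without sensitive replicate 3. Dropping a library cannot close a gap between the lines, so these counts could only stay or rise. The 4 genes with a peak in all 6 libraries became 2 at a peak p below 1e-05 and 1 at a fold of at least 5. Resistant-only and sensitive-only regions numbered 5 and 0 at a peak p below 1e-05 and 1 and 1 at a fold of at least 5. Needing all 3 libraries gave 5 and 0, though DUSP4 region 2, RASA1, SPRED1 and SPRY4 region 3 each lay in 2 sensitive lists. Leaving out 1 library, the first was 1 without resistant replicate 2. It was 5, 3 and 6 without sensitive replicates 1, 2 and 3. The second was 0 without sensitive replicate 1 or 2 and 2 otherwise. The NF1 difference in covered bases turned to 39.2 without resistant replicate 2 or 3, 9.67 without sensitive replicate 1 and 29.2 without sensitive replicate 2, from a low of -80.3. That of DUSP4 ranged from -23.2 without sensitive replicate 1 to 199.8. Per 1000000 covered bases of a library, a scaling chosen after seeing the data, the difference was -47.2 bases for DUSP4 and -1.55 for SPRED2. Divided by the median of the authors' deposited table, the DUSP4 fold was 0.974.

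The same-numbered libraries did not deviate together: over all genes the correlations of their deviations in covered bases were -0.031, -0.066 and -0.084, so the numbers do not pair them. With the replicate block, 5 genes had all 3 differences above 0 and 0 below, and the smallest p such a test can give is 0.25. That these 5 genes stood above 0 was fixed in advance, since all their resistant values lay above all their sensitive ones. Pairing also leaves the mean differences unchanged. Of the 6 genes in the comparison, none was called under any alternative for p, scaling, fold limit or overlap with peaks. Only the scaling could have added a call, since the other alternatives are stricter than the limits used. Read depth and RNA level per gene were not analysed here, and peak length and presence depend on both.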
